A study of Mus musculus with 80 samples.

Results

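A set of 8 small nucleolar RNA (snoRNA) host genes with short noncoding transcripts was followed in mouse embryonic stem cells after acute loss of METTL3, YTHDC1, ZCCHC8 or ZFC3H1. The 8 genes, Gas5, Snhg1, Snhg3, Snhg5, Snhg6, Snhg8, Snhg12 and Zfas1, were chosen by name from the 22556 genes of the 6 expression tables. 7 were found by symbol, and Zfas1 was found as 1500012F01Rik through a RefSeq synonym. All 8 passed the filter on low values in every table.

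RNA was sequenced from the insoluble chromatin pellet (chromatin-associated RNA, ChrRNA) of Cast x 129S ES cells grown on inactivated fibroblast feeders, in 80 libraries that fall into 36 groups. Each of the 4 degron lines carried FKBP12 F36V on the named protein, a tag through which the small molecule dTAG-13 causes its degradation. Cells were untreated, given dTAG-13 alone for 26 h, doxycycline (Dox) alone for 24 h, or dTAG-13 for 2 h followed by dTAG-13 with Dox for 24 h. The treatment field gives 2 h for dTAG-13 alone where the titles give 26 h, and the titles were followed.

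Dox induced Xist from a TetOn promoter that all lines carried in place of the native one. That promoter lay on the Cast allele in the METTL3 and ZFC3H1 lines and on the 129S allele, where the labels add Bgl to the Xist allele, in the YTHDC1 and ZCCHC8 lines. METTL3 loss was measured in 4 clones (G4 and H1 tagged at the N terminus, C3 and H5 at the C terminus), and the other losses in 2 clones each (Y9F and Y12H, Z4F and Z12H, 8H and 11A). The YTHDC1 clones were measured in 2 experiments. The METTL3 clone H5 also received GFP-METTL3 from Rosa26, either wild type (WT) or with the catalytic-site change D395A. Each transgene line was 1 clone (WT_P2B3 and D395A_1F with both X chromosomes, WT_1A and D395A_9F in which only the X with inducible Xist was detected, called XiO) with 2 replicate experiments. A degron removes the protein and leaves its RNA, so the RNA of the targeted gene does not check the labels.

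A snoRNA host gene is transcribed and spliced, and its introns are trimmed into snoRNAs that guide the chemical modification of ribosomal RNA and other RNAs. C/D snoRNAs guide methylation of the ribose, and H/ACA snoRNAs guide conversion of uridine to pseudouridine. The host RNAs left after splicing are often short-lived, and the nuclear exosome is recruited to short or prematurely ended RNAs by the NEXT complex, which contains ZCCHC8, and to polyadenylated RNAs by the PAXT connection, which contains ZFC3H1. METTL3 places N6-methyladenosine (m6A) on RNA, and YTHDC1 is its nuclear reader.

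The snoRNAs inside the spans give the genes their main known role and divide them by class, so 1 of them is shown for each member whose level changed on ZCCHC8 or YTHDC1 loss. The first has the H/ACA hinge box (ANANNA) and the terminal ACA in capitals, as does the second, and the other 3 have the C box (TGATGA) and the D box (CTGA) in capitals. Coordinates are those of GENCODE on GRCm38 (mm10), and the letters were read 5′ to 3′ on the host strand from the RefSeq GRCm38.p6 genome.
Snora73a in Snhg3, chr4:132352775-132352979, minus strand: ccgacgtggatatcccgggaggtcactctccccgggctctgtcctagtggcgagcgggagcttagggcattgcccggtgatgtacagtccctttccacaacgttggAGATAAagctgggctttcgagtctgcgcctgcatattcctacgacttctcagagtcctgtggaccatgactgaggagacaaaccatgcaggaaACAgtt
Snora24 in Snhg8, chr3:123507937-123508066, minus strand: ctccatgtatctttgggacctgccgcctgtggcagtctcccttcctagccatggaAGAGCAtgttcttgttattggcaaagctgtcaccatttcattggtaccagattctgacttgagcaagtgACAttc
Snord50a in Snhg5, chr9:88521529-88521600, minus strand: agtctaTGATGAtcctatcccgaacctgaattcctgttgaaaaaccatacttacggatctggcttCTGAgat
Snord87 in Snhg6, chr1:9942463-9942549, minus strand: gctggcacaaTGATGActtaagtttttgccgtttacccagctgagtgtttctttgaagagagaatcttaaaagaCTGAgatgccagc
Snord12 in Zfas1, chr2:167065276-167065365, plus strand: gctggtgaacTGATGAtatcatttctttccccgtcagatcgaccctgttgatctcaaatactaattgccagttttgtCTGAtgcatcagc

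The members differ in how many snoRNAs they hold. Gas5 (chr1:161035165-161038537) holds 9 C/D loci, Snhg1 (chr19:8723486-8726326) 8 and Zfas1 (chr2:167062933-167065862) 3. Snhg5 (chr9:88521052-88522897) holds 2 C/D loci and Snhg6 (chr1:9942024-9944118) holds 1. Of the hosts with H/ACA loci, Snhg3 (chr4:132351932-132353686) holds 2, Snhg8 (chr3:123507551-123508336) holds 1, and Snhg12 (chr4:132308677-132311024) holds 3 beside 1 C/D locus.

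The whole span of a gene was counted, exons and introns together, on the strand of the gene. The spans run from 786 bases (Snhg8) to 3373 bases (Gas5), and snoRNA loci cover between 4.15% (Snhg6) and 23.4% (Snhg3) of them. Reads of the spliced host RNA, of its introns and of precursors of its snoRNAs are therefore summed in each value and cannot be told apart.

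Many snoRNA host genes belong to the 5′ terminal oligopyrimidine class, whose RNAs begin in a run of C and T. The start of 3 members is shown for this feature, from 20 bases before to 30 bases from the RefSeq start, with the longest run of C or T within 10 bases of the start in capitals.
Gas5, chr1:161035146-161035195, plus strand: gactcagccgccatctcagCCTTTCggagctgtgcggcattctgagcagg
Snhg8, chr3:123508307-123508356, minus strand: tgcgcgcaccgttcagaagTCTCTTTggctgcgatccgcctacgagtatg
Snhg12, chr4:132308658-132308707, plus strand: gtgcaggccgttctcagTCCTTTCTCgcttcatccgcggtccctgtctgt

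The run was 9 bases in Snhg12, 7 in Snhg8, 6 in Gas5 and Snhg1, 5 in Snhg3, 4 in Zfas1 and 3 in Snhg5. Its median was 6 over these 7 members and 4 over 32851 promoters of the same length, and 12.2% of all promoters held a run of 7 or more. Such a run was in 2 of the 7 members (28.6%). Among 73 promoters of ribosomal protein genes the median was 5, and 37.0% held a run of 7 or more, so that the medians and these shares put the members and the ribosomal protein genes in opposite orders. A start sequence of Snhg6 was not used here.

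Library depth ran from 8583487 to 34392078 reads counted to genes, and a single read was worth 0.0291 to 0.117 CPM (reads scaled to the library total). Xist stood at 1383 to 8948 CPM with Dox and at 1.22 to 738 CPM without it. The summed level of 7 embryonic stem cell markers was 477 to 1923 CPM, and Sox2 alone of the 7 was listed at 0 in every library. The sum of 9 feeder fibroblast markers was 3.99 to 63.5 CPM. In the WT XiO line the stem cell markers lay below those of every other line, at 477 to 659 CPM. The feeder marker sum there ran from 44.6 to 63.5 CPM, a range that overlapped that of the D395A XiO line (14.4 to 47.5 CPM) and lay above the other lines (up to 21.4 CPM). Col5a2 made up most of the sum in both XiO lines, at 31.5 to 53.3 CPM in WT and 11.7 to 45.1 CPM in D395A. In these bulk libraries, fewer cells of a type and less RNA per cell cannot be told apart. Replicates are clones or experiments, and the spread was estimated over all libraries of a fit. In the degron fits the clone was a block. Their p-values therefore measure how treatment differences varied between the clones, and not how far the levels of clones lay apart. Each transgene line was 1 clone, so its p-values measure the spread between replicate experiments and none between clones. Reads carry no molecular identifiers.

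In the 20 untreated libraries the 8 hosts were among the most abundant RNAs per unit of gene length. The median level was highest for Snhg3, host of the U17 snoRNAs, at 279 CPM per kb, with a range of 109.9 to 925. Gas5 followed at 224 CPM per kb (165 to 438), then Snhg1 at 144 (83.1 to 248) and Snhg5 at 71.6 (38.8 to 166). Snhg3 was above Gas5 in 13 of 20 libraries, so that this order did not hold in all of them, whereas Gas5 was above Snhg1, and Snhg1 above Snhg5, in 20 of 20.

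The other members were lower per kb, with Snhg12 at a median of 42.0, Zfas1 at 40.1, Snhg8 at 30.2 and Snhg6 at 26.6 CPM per kb. Snhg12 was above Zfas1 in 13 of 20 libraries, Zfas1 above Snhg8 in 17, and Snhg8 above Snhg6 in 16. The ranges of every adjacent pair overlapped. Even the lowest member, Snhg6, lay at the 99.3 percentile of all genes tested by level per kb. Across all 80 libraries a member was covered by 124 to 79557 reads, the fewest for Snhg8 and the most for Snhg3.

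**Figure D1:**
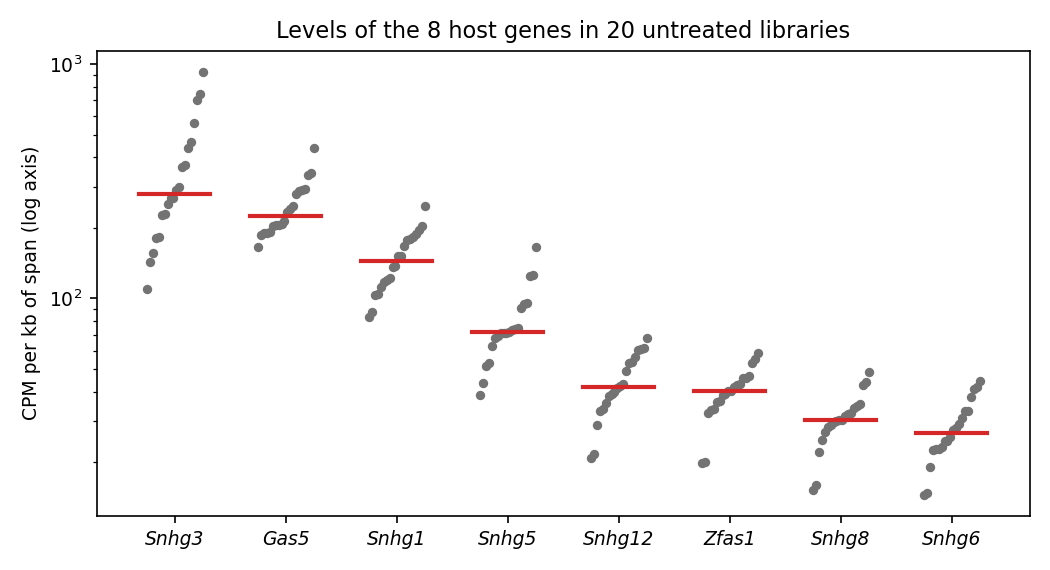
Level of each of the 8 hosts in the 20 untreated libraries, in CPM per kb of gene span on a log axis, with 1 point per library sorted by level and a bar at the median. Snhg3 had the highest median (279 CPM per kb) and the widest range, and Snhg6 the lowest median (26.6 CPM per kb).

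Loss of ZCCHC8, the scaffold of NEXT, moved 4 of the 8 hosts, and not in 1 direction. Of 13857 genes tested, 4079 were called higher and 3341 lower, so that 4 of 8 is no larger a share than that of all genes. Snhg3 rose, and Snhg6, Zfas1 and Snhg5 fell. Gas5, Snhg1, Snhg8 and Snhg12 did not pass the test, with log2 changes of -0.04 to 0.12. Here and below, a change is the mean dTAG effect without and with Dox on the log2(CPM + 1) scale, tested with limma with the clone as a block and Benjamini-Hochberg adjustment over all genes.

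Snhg3 stood at 397 and 322 CPM in untreated clones Z4F and Z12H and at 455 and 414 CPM after dTAG-13. With Dox it stood at 439 and 399 CPM, against 603 and 531 CPM with dTAG-13 and Dox. It was higher in 4 of 4 clone pairs, and the groups did not overlap at either state of Dox. The log2 change was 0.36 (SE 0.04, limma adjusted p = 3.81e-06), a 1.28-fold rise. Over all genes tested, 29.4% were called higher on this comparison, so that 1 of 8 members is no larger a share than the background. Without the clone as a block, the Snhg3 change had an SE of 0.17 and did not pass (limma adjusted p = 0.117).

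Zfas1, a C/D host that starts beside Znfx1, showed the largest fall. It stood at 122 and 127 CPM untreated against 73.2 and 88.5 CPM after dTAG-13, and at 145 and 167 CPM with Dox against 141 and 129 CPM with dTAG-13 and Dox. It was lower in 4 of 4 pairs, and the pair of clone Z4F with Dox differed by only -0.04. The change was -0.42 (SE 0.06, limma adjusted p = 1.18e-05).

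Snhg6, host of Snord87, stood at 64.9 and 69.3 CPM untreated and at 43.6 and 48.3 CPM after dTAG-13. With Dox it stood at 68.2 and 72.5 CPM, and with both agents at 62.5 and 59.0 CPM. All 4 libraries with dTAG-13 lay below all 4 without it. Its change was -0.37 (SE 0.07, limma adjusted p = 0.000172).

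Snhg5, host of Snord50a and Snord50b, stood at 169 and 229 CPM untreated and 146 and 181 CPM after dTAG-13, ranges that overlap. With Dox it stood at 197 and 247 CPM against 193 and 194 CPM. The change was -0.23 (SE 0.08, limma adjusted p = 0.0228), and it was the least stable of these 4, passing the test under 6 of 12 alternative settings. Without clone Z12H it was at -0.12 (limma adjusted p = 0.425). The 3 hosts that fell compare with 24.1% of all genes called lower.

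The summed level of the feeder fibroblast markers was higher with dTAG-13 in the ZCCHC8 line, and Col5a2 made up most of it. Their sum was 9.54 to 10.7 CPM untreated and 14.5 to 14.8 CPM after dTAG-13, and 11.0 to 11.3 CPM with Dox against 16.6 to 16.7 CPM with both agents, without overlap at either state of Dox. Of the 9 markers, 3 were abundant enough to be tested and 1 was called, Col5a2, a fibrillar collagen, at 0.61 (limma adjusted p = 6.17e-06). Its mean was 6.16 CPM untreated and 9.53 CPM after dTAG-13, and 7.06 CPM with Dox against 11.8 CPM with both agents. The other tested markers, Col1a2 (0.09, limma adjusted p = 0.55) and Thy1 (0.20, limma adjusted p = 0.127), did not pass. Col1a1 and Col3a1 stayed at 0.533 CPM or less in each library of the line, Postn at 0.142 CPM or less, and Lum was at 0 in 7 of 8 libraries. The stem cell markers had 1 higher (Esrrb, 0.20) and 1 lower (Klf4, -0.41). The part of these shifts in the changes of the hosts was not tested.

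The size of the Zfas1 and Snhg6 changes was larger without Dox (-0.62 and -0.54) than with it (-0.21 and -0.21). The interaction of dTAG-13 and Dox passed the test for none of the 8, with the lowest limma adjusted p at 0.196 for Zfas1, and it passed for 33 of 13857 genes in this line.

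**Figure D2:**
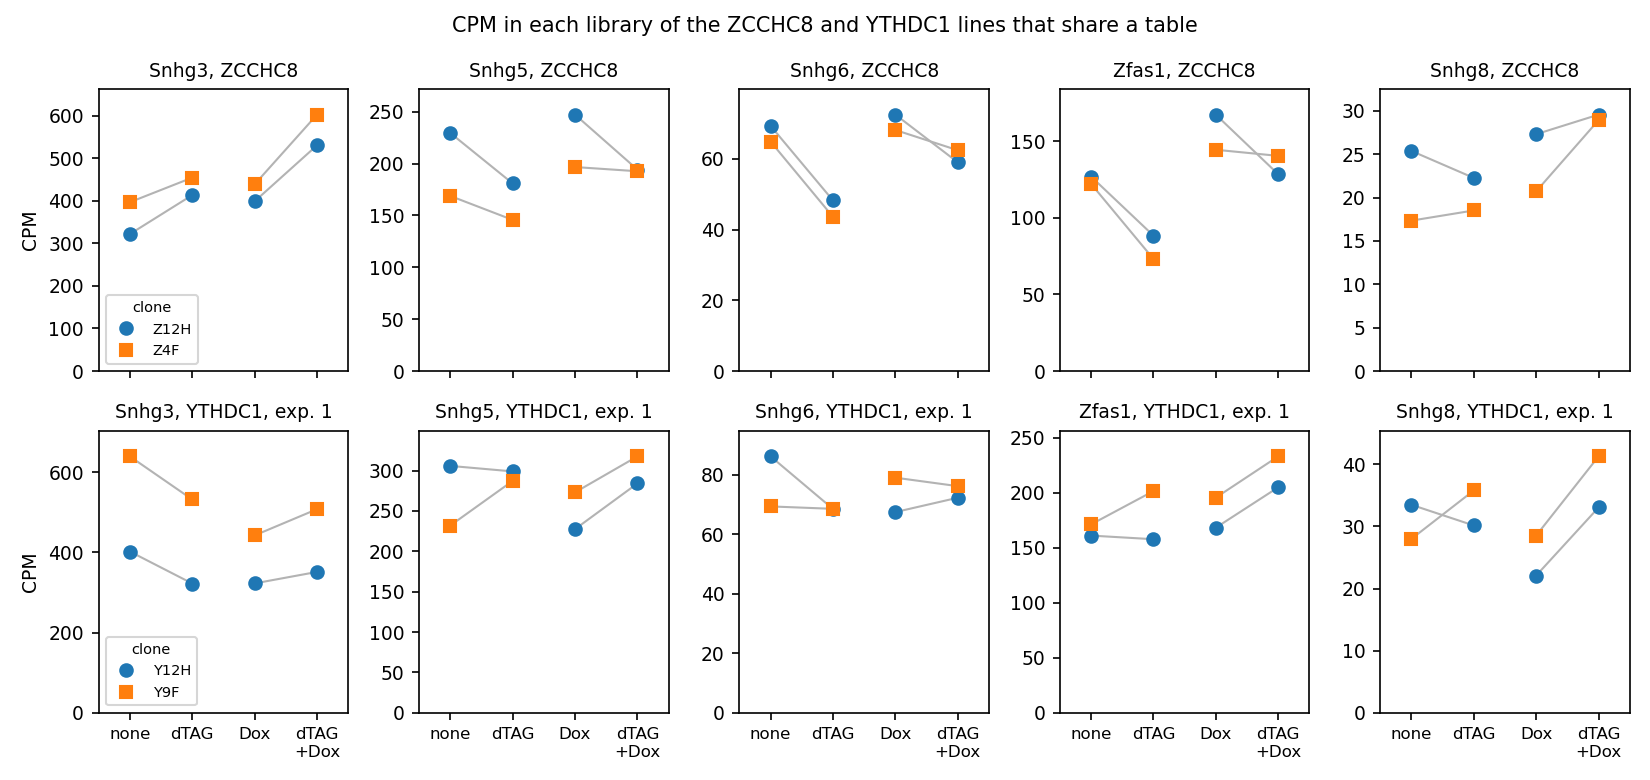
CPM of 5 hosts in each library of the ZCCHC8 line and of the first YTHDC1 experiment, by treatment, with 1 point per library, colours for clones and lines joining the libraries of a clone. Snhg3 sits higher and Snhg6 lower with dTAG-13 in both ZCCHC8 clones.

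Loss of ZFC3H1, the PAXT component, moved none of the 8 hosts past the test, while 9.90% of all genes were called in either direction. Changes lay between -0.04 (Snhg5) and 0.10, and every 95% interval lay within -0.27 and 0.47 on the log2 scale. Snhg3 stood at 1236 and 817 CPM in untreated clones 8H and 11A, 1233 and 642 CPM after dTAG-13, 552 and 522 CPM with Dox and 607 and 807 CPM with both. Its libraries overlapped without Dox and did not overlap with it. With Dox, 8 of 8 members were higher in each clone (median log2 difference 0.17 in 8H and 0.28 in 11A), and without Dox 1 and 2 of 8 were, respectively. Members of a pair share its libraries. With Dox, the share of reads in genes shorter than 3 kb went from 1.36% to 1.66% with dTAG-13 in 8H and from 1.63% to 1.90% in 11A. Without Dox it went from 2.255% to 2.46% in 8H and from 1.56% to 1.27% in 11A. The part of this share in these counts was not tested. No interaction passed the test (lowest limma adjusted p of a member, 0.997, on 13544 genes).

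Averaged over Dox, YTHDC1 loss raised 2 hosts in both experiments, Snhg8 and Zfas1, and none was called lower. These share no snoRNA class, since Snhg8 holds an H/ACA locus and Zfas1 C/D loci. In the first experiment Snhg8 stood at 28.0 and 33.5 CPM in untreated Y9F and Y12H and at 35.8 and 30.2 CPM after dTAG-13. With Dox it stood at 28.5 and 22.1 CPM, against 41.3 and 33.1 CPM with both agents. The change was 0.32 (SE 0.09, limma adjusted p = 0.0126), with 3 of 4 pairs higher.

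In the second experiment Snhg8 stood at 23.7 and 24.9 CPM untreated, 31.1 and 28.3 CPM after dTAG-13, 27.0 and 30.8 CPM with Dox and 33.6 and 38.5 CPM with both. It was higher in 4 of 4 pairs (log2 0.29, SE 0.07, limma adjusted p = 0.00192). Groups did not overlap at either state of Dox.

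Zfas1 changed by 0.18 (SE 0.06, limma adjusted p = 0.0187) in the first experiment and by 0.22 (SE 0.04, limma adjusted p = 0.000942) in the second. In the second it stood at 115 and 114 CPM untreated, 134 and 134 CPM after dTAG-13, 129 and 142 CPM with Dox and 157 and 157 CPM with both, without overlap at either state of Dox. The shares of all genes called higher were 18.6% and 15.9%, so that 2 of 8 members is close to the background. In the first experiment clone Y12H had 0 of 8 members higher without Dox and 8 of 8 with it.

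In the first experiment the calls without Dox were others. There neither Snhg8 (0.10, limma adjusted p = 0.641) nor Zfas1 (0.10, limma adjusted p = 0.409) passed, and Snhg3 was called lower, at -0.29 (SE 0.06, limma adjusted p = 0.00336), against 8.45% of all genes. Snhg3 stood at 639.8 and 402 CPM in untreated Y9F and Y12H and at 532 and 323 CPM after dTAG-13. With Dox it was at 0.16 (limma adjusted p = 0.0891), with 443 and 323 CPM against 508 and 352 CPM. The interaction of dTAG-13 and Dox for Snhg3 was 0.45 (SE 0.09) and did not pass over all genes (limma adjusted p = 0.542). In the second experiment Snhg3 was at -0.02 without Dox (limma adjusted p = 0.871). The feeder marker sum was 9.51 to 10.6 CPM untreated and 11.9 to 13.9 CPM after dTAG-13 in the first experiment, and 10.4 to 10.5 CPM with Dox against 11.2 to 11.8 CPM with both agents, with Col5a2 at 0.33 (limma adjusted p = 0.00376) the 1 called of 3 tested. In the second experiment the sums overlapped. Of 4 feeder markers tested there, Col5a2 was called higher (0.39, limma adjusted p = 0.00285) and Thy1 lower (-0.31, limma adjusted p = 0.0212). Among the stem cell markers, Nanog (-0.29, limma adjusted p = 0.00213) and Dppa5a (-0.26, limma adjusted p = 0.0150) were called lower there, and none was called in the first experiment. The part of these shifts in the changes of the hosts was not tested. Without clone Y9F, Snhg8 was at 0.21 (limma adjusted p = 0.267) and Zfas1 at 0.13 (limma adjusted p = 0.371) in the first experiment. Without clone Y12H, Zfas1 was at 0.24 (limma adjusted p = 0.0548).

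The ZCCHC8 and first YTHDC1 experiments share 1 table, and the difference of their dTAG effects was tested directly. Snhg3 was higher by 0.42 (SE 0.06, limma adjusted p = 3.91e-05) on ZCCHC8 loss relative to YTHDC1 loss. Zfas1 (-0.60, SE 0.08, limma adjusted p = 1.50e-05), Snhg5 (-0.44, SE 0.11, limma adjusted p = 0.00559) and Snhg6 (-0.30, SE 0.09, limma adjusted p = 0.0160) were lower. The other 4 members did not pass the test, and their 95% intervals lay between -0.47 and 0.20. Without clone Z12H, Snhg5 (-0.32, limma adjusted p = 0.0883) and Snhg6 (-0.27, limma adjusted p = 0.101) did not pass. Over all genes, 23.4% were higher and 20.5% lower in this difference. The remaining losses were measured in other tables that were normalized separately, so their changes are set side by side without a test.

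**Figure D3:**
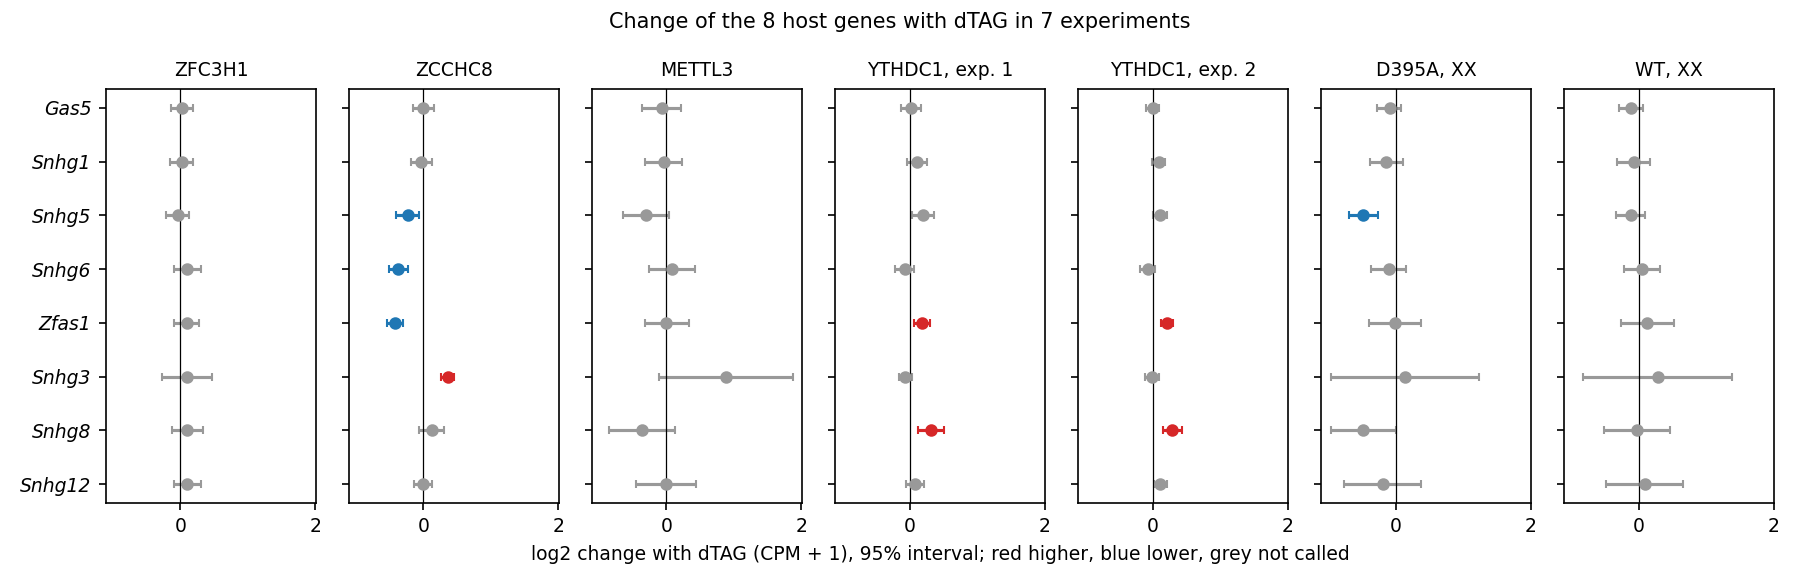
Log2 change (log2(CPM + 1) scale) of each host on dTAG-13 in the degron lines and the XX transgene lines, averaged over Dox, with 95% intervals from limma. Points past the test are red (higher) or blue (lower), and the XiO lines are left out. ZCCHC8 shows 1 host higher and 3 lower, YTHDC1 shows Snhg8 and Zfas1 higher, and METTL3 and ZFC3H1 show none past the test.

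METTL3 loss moved none of the 8 hosts past the test, against 43.8% of all genes called in either direction. In this line the median of all genes was 0.22, and whether this reflects the scaling or RNA levels was not tested. Snhg5 was at -0.30 (SE 0.16, limma adjusted p = 0.131), Snhg8 at -0.36 (SE 0.22, limma adjusted p = 0.193) and Snhg3 at 0.88 (SE 0.46, limma adjusted p = 0.131). The other 5 lay between -0.07 and 0.08. Over all genes, 4687 were higher and 1162 lower, and with median-ratio scaling, which moves that median to 0.04, 2436 were higher and 2363 lower. Under that scaling Snhg5 was at -0.50 (limma adjusted p = 0.0174) and Snhg8 at -0.56 (limma adjusted p = 0.05).

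Snhg8 in clones G4, H1, C3 and H5 stood at 23.4, 21.2, 23.6 and 26.9 CPM untreated and at 10.5, 10.5, 34.7 and 21.4 CPM after dTAG-13. With Dox it stood at 23.5, 18.1, 26.9 and 33.4 CPM, and with both agents at 11.0, 14.7, 58.8 and 17.4 CPM. It was lower in 6 of 8 pairs, and the exceptions were both pairs of clone C3.

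Snhg5 in the same clone order stood at 139, 95.5, 131 and 133 CPM untreated, and at 65.4, 86.0, 161 and 108 CPM after dTAG-13. With Dox it stood at 138, 122, 152 and 181 CPM, and with both agents at 76.9, 103, 234 and 111 CPM. Again 6 of 8 pairs were lower and both C3 pairs were higher.

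Snhg3 varied most. It stood at 1300.3, 507, 318 and 771 CPM untreated and at 1032, 597, 1076 and 2256 CPM after dTAG-13, and with Dox at 1205, 703, 196 and 405 CPM against 811, 522.5, 3459 and 644 CPM with both. It was higher in 5 of 8 pairs, by 4.13 on the log2 scale in clone C3 with Dox.

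All 8 members were higher in both pairs of clone C3, and none was higher in either pair of G4. In H1, 1 and 2 of 8 were higher without and with Dox, and in H5 5 and 3. In C3 the share of reads in genes shorter than 3 kb was also higher with dTAG-13, at 0.797% untreated and 1.22% after dTAG-13, and at 0.497% with Dox and 4.57% with both agents. The other clones did not all do so. In H1 without Dox the share went from 1.02% to 1.89% while the median log2 difference of the members was -0.20. In G4 without Dox it was nearly level (2.53% and 2.46%) with a median of -0.62. In the remaining pairs the share and the median moved the same way. With Dox the share went from 2.95% to 2.07% in G4 (median -0.55) and from 2.437% to 1.725% in H1 (median -0.13). In H5 it went from 1.78% to 3.38% without Dox (median 0.20) and from 1.21% to 1.04% with Dox (median -0.40). In the other lines this share varied 1.30- to 2.05-fold over all libraries, and in METTL3 9.21-fold. Clone C3 was singled out after its values were seen, so the fit without it is a description and no separate test. The fit with all clones called no member. Without clone C3, Snhg8 (-0.76, limma adjusted p = 0.00335), Snhg5 (-0.55, limma adjusted p = 0.00912) and Gas5 (-0.30, limma adjusted p = 0.0387) were lower, against 6.45% of all genes, and Snhg3 was at 0.19 (limma adjusted p = 0.641). With that share as a term in the fit, Snhg8 was at -0.59 (limma adjusted p = 0.0171) and Snhg5 at -0.45 (limma adjusted p = 0.0128). Of 7 stem cell markers, 3 were higher on METTL3 loss, Klf4 (1.43), Pou5f1 (0.77) and Nanog (0.42), and of 9 feeder markers 3 were tested and Thy1 was higher (0.49), and the part of these in the changes of the hosts was not tested.

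**Figure D4:**
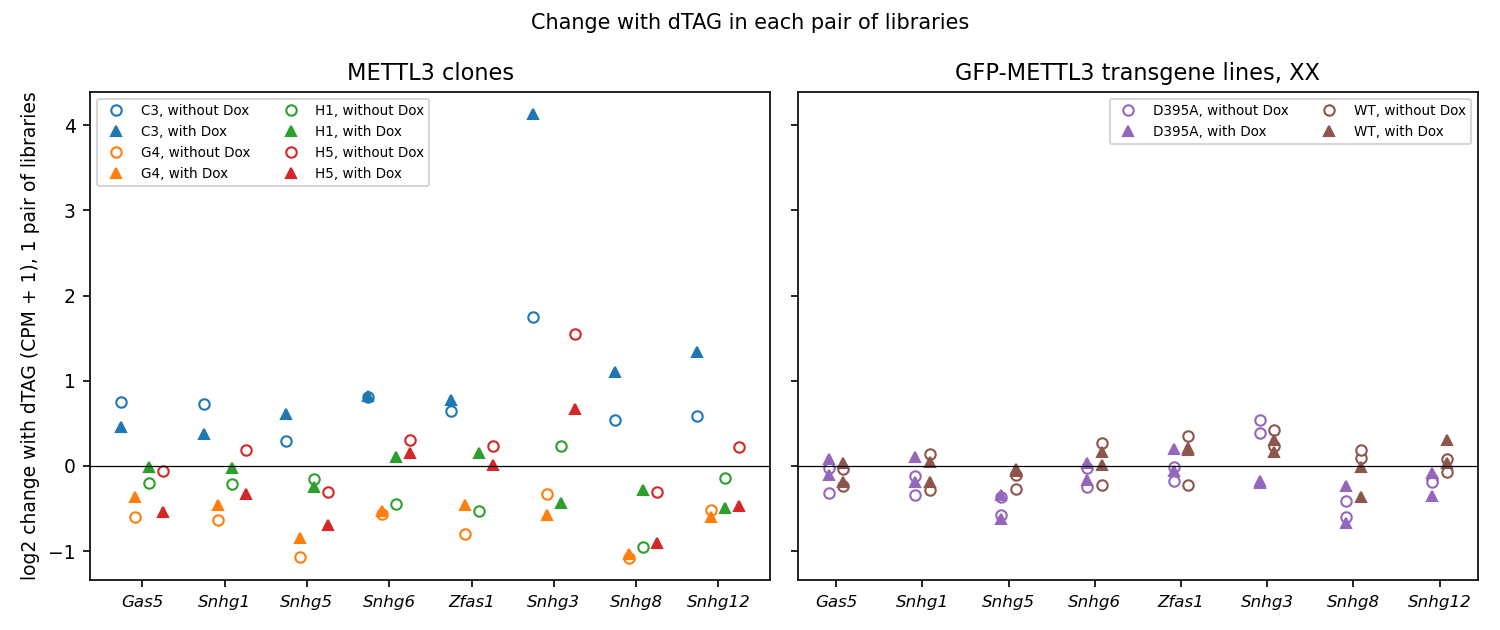
Log2 difference of each host between dTAG-13 and its control in each pair of the 4 METTL3 clones (left) and of the XX transgene lines (right), without Dox (open circles) and with it (triangles). All 8 hosts lie above 0 in both pairs of C3 and below 0 in both pairs of G4.

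The rescue lines ask whether the catalytic site matters for these hosts. With the D395A transgene and both X chromosomes, Snhg5 stood at 135 and 131 CPM untreated, 104 and 87.6 CPM after dTAG-13, 154 and 141 CPM with Dox and 99.9 and 111 CPM with both. All 4 libraries with dTAG-13 lay below all 4 without it. The change was -0.48 (SE 0.10, limma adjusted p = 0.00703), and 4.27% of all genes were called lower. The sum of the stem cell markers also fell in these libraries. It was 1432 to 1462 CPM untreated and 1059 to 1149 CPM after dTAG-13, and 1296 to 1426 CPM with Dox against 1086 to 1143 CPM with both agents. Esrrb and Zfp42 made up most of it, with untreated means of 895 and 399 CPM. Of the 7 markers, 6 were tested and Zfp42 was called (-0.39, limma adjusted p = 0.0476). The others did not pass and did not all fall: Dppa5a was at -0.61, Esrrb at -0.37, Pou5f1 at -0.12, Nanog at -0.01 and Klf4 at 0.31. The feeder marker sum was 3.99 to 4.08 CPM untreated and 4.66 to 5.85 CPM after dTAG-13, and 5.12 to 5.68 CPM with Dox against 6.20 to 6.24 CPM with both, with the 1 marker tested, Col5a2, at 0.19 (limma adjusted p = 0.523). Neither sum overlapped between the groups, and the part of these shifts in the fall of Snhg5 was not tested. Without the first or the second experiment Snhg5 was at -0.46 and -0.50 and did not pass (limma adjusted p = 0.241 and 0.276). Snhg8 was lower in 4 of 4 pairs, at -0.48 (SE 0.22, limma adjusted p = 0.168). Per the study's methods, the wells of a replicate came from a single batch of cells, and with the experiment as a block Snhg5 (SE 0.06, limma adjusted p = 1.62e-05), Snhg8 (SE 0.10, limma adjusted p = 0.00114) and Snhg12 (-0.19, SE 0.08, limma adjusted p = 0.047) were lower, against 14.9% of all genes.

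With the WT transgene no member and 0% of all genes passed, in either the XX or the XiO line (0%). Snhg5 was at -0.12 (SE 0.10, limma adjusted p = 1.0) in WT XX. The difference between D395A and WT in XX lines was -0.36 for Snhg5 (95% interval -0.66 to -0.06, limma adjusted p = 0.215), and 2.63% of all genes passed it. With the experiment as a block this difference passed for Snhg5 (SE 0.09, limma adjusted p = 0.00752) and for Snhg8 (-0.45, SE 0.15, limma adjusted p = 0.0284), against 8.80% of all genes called lower. In the D395A XiO line no member passed against 5.85% of all genes, with Snhg5 at -0.32 and Snhg8 at -0.33 (SE 0.48 and 0.50). With the experiment as a block Snhg5 was called lower (SE 0.10, limma adjusted p = 0.015), against 12.4%. The difference from WT XiO was called for 0.0297% of genes and no member, and for Snhg5 its 95% interval was -1.69 to 1.30. Both XiO lines differed between experiments, with untreated Snhg3 at 523 and 979.6 CPM in D395A and 472 and 1623 CPM in WT.

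Dox alone, against untreated cells, changed members in 3 of the 5 degron experiments. In the second YTHDC1 experiment Snhg12 (0.37), Snhg1 (0.36), Gas5 (0.35), Snhg5 (0.27) and Zfas1 (0.24) rose, with limma adjusted p of 0.000391 to 0.0229, against 10.0% of all genes called. In the ZCCHC8 line Zfas1 (0.32, limma adjusted p = 0.0151) and Snhg3 (0.23, limma adjusted p = 0.0235) rose, against 10.9%. In the first YTHDC1 experiment Snhg3 was at -0.42 (limma adjusted p = 0.000158), against 12.6%. None passed in the METTL3 line (0.778% of genes) or the ZFC3H1 line (1.11%).

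Other noncoding snoRNA hosts give the context of the ZCCHC8 values. Of 16 listed, 10 were in the tables and tested, and 4 rose and 3 fell on ZCCHC8 loss, against 29.4% of all genes called higher and 24.1% lower. Dancr, host of an H/ACA snoRNA, stood at 26.4 and 28.1 CPM untreated in Z4F and Z12H and 85.8 and 132 CPM after dTAG-13. It rose by 1.97 on the log2 scale (SE 0.08, limma adjusted p = 1.32e-11), more than any of the 8. Snhg7 (0.69) and Snhg4 (0.65) also rose. On ZFC3H1 loss Dancr (0.82, SE 0.11, limma adjusted p = 0.00161) and Snhg4 (0.39, SE 0.08, limma adjusted p = 0.0169) rose, against 6.45% of all genes called higher.

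A division by snoRNA class was noticed after the values were seen and is given as a description. Among the 18 noncoding hosts tested on ZCCHC8 loss, the 8 with an H/ACA locus had 4 higher and 0 lower (median 0.24), and the 8 with C/D loci only had 0 higher and 5 lower (median -0.25). Over all genes, 29.4% were called higher and 24.1% lower on this loss. Among the 258 other genes that hold a snoRNA locus, the 130 with an H/ACA locus had 50 higher and 35 lower (median 0.05), and the 48 with C/D loci only 12 and 17 (median -0.06). On ZFC3H1 loss the noncoding hosts had 2 higher among 8 with an H/ACA locus and 0 among 8 with C/D loci only, against 6.45% of all genes.

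**Figure D5:**
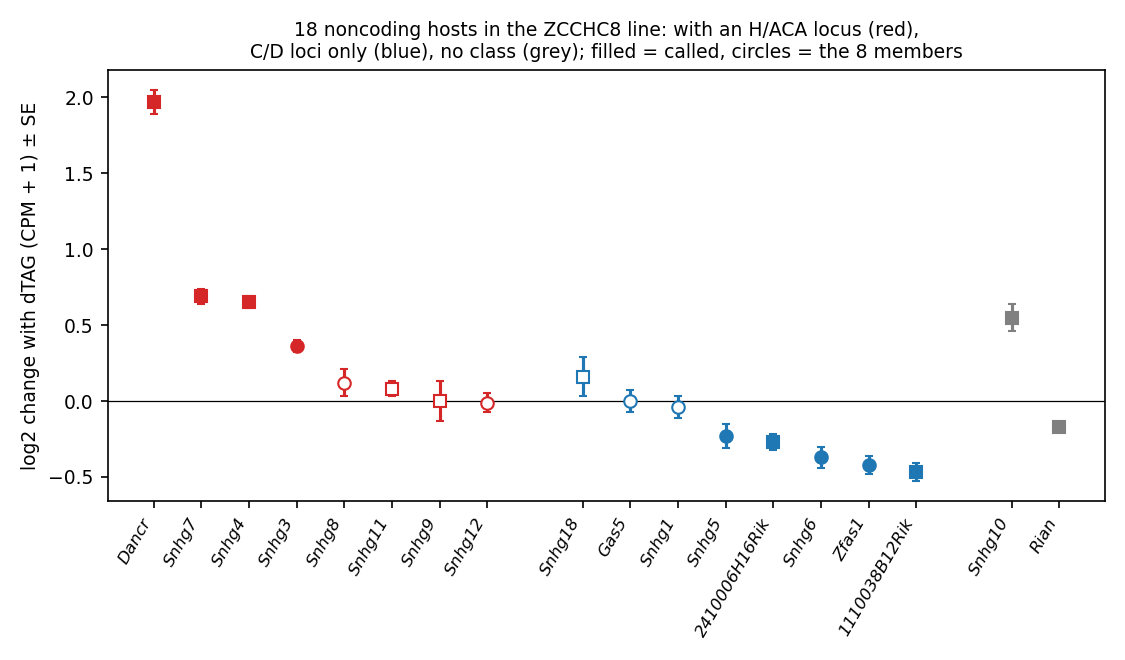
Log2 change on ZCCHC8 loss, on the log2(CPM + 1) scale with SE bars, of the 18 noncoding hosts by class of their snoRNA loci, with circles for the 8 members and filled points for genes past the test. The hosts with an H/ACA locus have a median of 0.24 and those with C/D loci only a median of -0.25.

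Genes of similar span are the nearest comparison in length. On ZCCHC8 loss 319 of 713 genes within the range of the members' spans were higher and 67 lower, with a median of 0.19 where the 8 members had -0.02. On METTL3 loss the median of such genes was 0.41, and that of the members -0.03.

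The proteins of the pathway were read from gene lists. Their counts stand against 29.4% of all genes higher and 24.1% lower on ZCCHC8 loss, and 35.1% higher and 8.69% lower on METTL3 loss. Of 13 snoRNP proteins and assembly factors, 2 were higher and 6 lower on ZCCHC8 loss, with Nop10, an H/ACA core protein, at 0.42 and Fbl, the C/D methyltransferase fibrillarin, at -0.39. On METTL3 loss 5 were higher and 1 lower, with Nop10 at 0.54 and Nop56, a C/D core protein, at 0.51. With median-ratio scaling this became 1 higher and 2 lower, so that the direction on METTL3 loss rests on the scaling. None passed on ZFC3H1 loss.

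Of 21 exosome subunits and adaptors, 1 was higher and 8 lower on ZCCHC8 loss (Pabpn1, the nuclear poly(A)-binding protein, at -0.42), and only Zfc3h1 itself (0.30) passed on ZFC3H1 loss. Of 10 factors of nonsense-mediated decay, the pathway that removes many spliced host RNAs in the cytoplasm, 7 were lower and 0 higher on ZCCHC8 loss, including Upf3a (-0.33) and Smg5 (-0.31). Of 77 ribosomal protein genes, 13 were higher and 30 lower on ZCCHC8 loss. On METTL3 loss 15 were higher and 0 lower, a smaller share higher than that of all genes, and 3 were higher and 0 lower with median-ratio scaling.

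3 members start within 2000 bases of a gene on the other strand. Zbtb37, 906 bases from Gas5, rose on ZCCHC8 loss (0.36, limma adjusted p = 2.67e-05) and in both YTHDC1 experiments (0.52 and 0.45), where Gas5 was at 0.00, 0.02 and 0.00. Slc3a2, 117 bases from Snhg1, fell by 0.25 on ZFC3H1 loss (limma adjusted p = 0.0302), where Snhg1 was at 0.02. It also fell in both YTHDC1 experiments, by 0.19 and 0.18 (limma adjusted p = 0.00814 and 0.00773), where Snhg1 was at 0.11 and 0.09. Znfx1, whose start lies 82 bases from that of Zfas1 with overlapping spans, fell by 0.16 on ZCCHC8 loss (limma adjusted p = 0.0135), and Zfas1 fell by 0.42.

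Over the 10 dTAG changes of the 5 degron experiments, the genes most like the mean of the 8 members by Pearson r were Rabggtb (0.94), Parp12 (0.92), Fdx1 (0.90), Serinc5 (0.88) and Diras2 (0.87), out of 12969 genes. These points share libraries within each experiment, and r is given as a description.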

How the data were processed

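ChrRNA-seq values of 80 libraries were taken from 6 deposited expression tables as CPM, read counts scaled to the library total. Per the study's methods, the authors removed ribosomal reads with Bowtie2, aligned with STAR to an N-masked mm10 genome, kept unique pairs, counted strand-specifically over whole transcript spans with featureCounts and scaled with edgeR. The tables were normalized separately, and comparisons were made within a table. 12 columns that no sample label named were not used. All CPM values came out as whole reads within a tolerance of 0.05, and depth was recovered from them.

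CPM values with a mean of at least 1 in a fit were put on the log2(CPM + 1) scale and tested in R 4.3.3 by limma 3.58.1, with Benjamini-Hochberg adjustment over all genes and a threshold of 0.05. The contrast was the mean dTAG effect without and with Dox. In degron lines the clone was a block, because libraries of a clone come from the same cells. Same-clone libraries deviated together with a mean r of 0.29 to 0.87. In the transgene lines the fit had no block. There the study states that wells of a replicate were divided from a single cell batch, same-experiment libraries deviated together (mean r 0.57 to 0.88), and the blocked value is given where it changed a call. Alternatives included edgeR 4.0.16 and DESeq2 1.42.0 on the recovered reads, another scaling, a pseudocount of 0.25, no filter, the block, the share of reads in short genes as a term and leaving out each replicate. Of 56 replicate pairs, 0 were identical, and totals ran from 8583487 to 34392078 reads (median 22469210), which sets counting error only. The fits were also run on simulated reads with known changes. Those reads had the same dispersion for all genes and no clone or experiment effects, so they do not check the blocks.

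All 8 members are named. From each gene list at most 3 called genes per line are named by size of change, and 5 genes by likeness. The members and lists were chosen with earlier results of these data known. snoRNA loci are those of the annotation inside a span on its strand.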

Additional observations from a re-analysis of the deposited data

Results flagged for a closer look

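In the METTL3 line each member was examined in groups of 4 clones, 32 groups in all, for a clone far from the other 3, and 3 were found. Chance gives about 1 in 20 groups. Snhg5 in untreated clone H1 stood at 95.5 CPM, where the others stood at 131 to 139 CPM. Snhg12 with Dox stood at 95.03 CPM in clone C3, where the others stood at 129 to 135 CPM, and with dTAG-13 and Dox at 242 CPM in C3, where the others stood at 88.5 to 95.3 CPM.

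The effect of dTAG-13 differed between the ZCCHC8 line and the first YTHDC1 experiment, by a limma test of the difference itself, for 4 members. The difference in log2 change was 0.42 for Snhg3, -0.44 for Snhg5, -0.30 for Snhg6 and -0.60 for Zfas1. Over all genes, 23.4% were called higher and 20.5% lower in this difference, so that 4 of 8 members is close to the background.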

How the results depend on the processing

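No log2 change of a member that passed the test turned its direction under any alternative run. Zfas1 passed on ZCCHC8 loss under all 12 alternatives (-0.62 to -0.21, limma, edgeR and DESeq2 adjusted p up to 0.0452). Of 142 alternatives for the number of members called, 115 stayed within 1.5 times the reported number. Runs of the WT XX line, the WT XiO line and the XiO difference are among the 115. There 0%, 0% and 0.0297% of all genes passed in the main fit, so a count of 0 members could hardly move. The alternatives outside that range, whose cause was not tested, follow.

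A number of members given without the share of all genes does not show whether all genes moved alike. The replicate block moved several of these numbers. Without it, members called fell from 4 to 2 in ZCCHC8, from 2 to 0 in both YTHDC1 experiments and from 4 to 2 in the ZCCHC8 and YTHDC1 difference. In ZCCHC8 the members that no longer passed were Snhg3 and Snhg5 (limma adjusted p = 0.117 and 0.121). With the experiment as a replicate block in the transgene lines, D395A XX went from 1 to 3, D395A XiO from 0 to 1 and the D395A and WT difference in XX from 0 to 2. With this block 14.9%, 12.4% and 8.80% of all genes were called lower, respectively, against 4.27% in D395A XX without it.

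On METTL3 loss the number rose from 0 to 1 with median-ratio scaling, to 2 with edgeR and with DESeq2 and to 3 with the share of reads in short genes as a covariate. With median-ratio scaling 18.3% of all genes were called higher and 17.7% lower. For YTHDC1 experiment 1 it went from 2 to 1 without the filter and to 4 with the covariate. For D395A XX it went from 1 to 2 with DESeq2, with the covariate and with only that line fitted, and for its difference from WT from 0 to 1 with DESeq2. With dTAG and Dox against Dox only, ZCCHC8 had 2 and D395A XX 0. There 3490 of 13857 genes were higher and 2108 lower in ZCCHC8, and 328 and 98 of 13364 in D395A XX. With dTAG against untreated only, YTHDC1 experiment 1 had 1, which was Snhg3 and lower, while Snhg8 and Zfas1 did not pass. D395A XX had 0 and the ZCCHC8 and YTHDC1 difference had 2. There 1463 of 13857 genes were higher and 1171 lower in YTHDC1 experiment 1. The counts were 649 and 154 of 13364 in D395A XX and 1926 and 1549 of 13857 in the difference.

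Leaving out 1 replicate gave 0 to 3 members on METTL3 loss, 0 to 2 in YTHDC1 experiment 1, 0 in D395A XX and 2 to 4 in the ZCCHC8 and YTHDC1 difference. Where this left 1 library in a group, it was assumed to vary like the others. In the ZFC3H1 table and the second YTHDC1 experiment it left no residual degrees of freedom, so those are values with no test. Precision is limited by the small number of clones and, for counting error, by depth. Snhg8, at as few as 124 reads, is the member with the largest counting error.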
